A study of Mus musculus with 4 samples.

Results

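The 9 genes described here encode the enzymes that make serine and pass its carbon into the folate cycle: Phgdh, Psat1, Psph, Shmt1, Shmt2, Mthfd1, Mthfd2, Mthfd1l and Aldh1l2. They were taken by name from a table of 53291 gene features, into which RefSeq transcript rows had been summed. Of the 9, 6 had enough counts to be tested and 3 (Shmt2, Mthfd1l and Aldh1l2) did not. RNA was sequenced from female germline stem cells of the mouse strain C57BL/6, described as a long-passaged culture with germ cell properties, after 4 h with spermidine (SPD, 2 libraries) or as control (2 libraries). Spermidine is a polyamine, used in this series to study protective autophagy, and the labels give no dose. They also do not say whether the 2 libraries of a group are separate cultures, and the p-values below therefore cover only the spread between these libraries, possibly a technical one.

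Serine synthesis branches off glycolysis at 3-phosphoglycerate. Phgdh oxidises it, Psat1 transfers an amino group onto the product, and Psph removes the phosphate to leave serine. Shmt1 in the cytosol and Shmt2 in mitochondria then split serine into glycine and a carbon unit carried on folate. Mthfd2, Mthfd1l and Aldh1l2 handle that unit in mitochondria, releasing it as formate or carbon dioxide, and Mthfd1 takes formate up again in the cytosol for purine and thymidylate synthesis. The pathway is known for high activity in dividing cells, and several of its genes are known targets of the amino acid response factor ATF4.

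The libraries differed greatly in depth and content. Total counts were 7206176 and 7128901 for control, and 787600 and 1718944 after spermidine. A ribosomal RNA feature, AY036118, took 1.68% and 1.64% of control counts against 29.6% and 30.7% of spermidine counts. Olfactory and vomeronasal receptor genes, which serve here as a measure of stray counts, held 3.18 counts per kb in spermidine replicate 1 and 0.0634 to 0.176 in the other 3 libraries. Cell markers also moved: leukocyte markers fell for 6 of 8 tested genes, with a summed level of 4464 and 3751 CPM (library counts scaled to a total of 1e+06) in the controls against 963.7 and 257.1, and mast cell markers fell for 2 of 3. Of all tested genes, 3.99% were called lower. Of 16 leukocyte markers 7 were at 0 in both controls (Ptprc, Laptm5, Itgam, Csf1r, Adgre1, Spi1 and Lcp1), and of 11 mast cell markers 3 (Fcer1a, Ms4a2 and Tpsb2). Several of these hold few countable bases, such as 3 for Itgam, 2 for Adgre1, 18 for Csf1r and 26 for Fcer1a, so a 0 there does not measure absence. Granulosa and theca markers rose for 8 of 9 tested genes, from summed levels of 155.1 and 129.5 CPM to 2596 and 5761, and oocyte markers for 5 of 5, from 2.637 and 4.348 to 193 and 1802. Without control replicate 1 none of these markers was called, leukocyte calls were 2 and mast cell calls 1 without control replicate 2, and they were 3 and 0 without spermidine replicate 1. Surface epithelium markers rose for 6 of 6, endothelial markers for 3 of 3, and fibroblast and stroma markers for 4 of 8, with 1 lower, against 24.8% of all tested genes called higher. Many markers that rose had few control counts, such as Krt19 and Kdr with 0 in both controls. Genes under 1 normalised CPM (scaled as below) in the controls pass the count filter only through spermidine counts. Of the 1483 such genes tested, 95.9% were called higher, so these counts of rises are descriptions. Of 12 germline markers 5 were tested: Tex19.1 fell (1955 and 1770 control counts against 36 and 25), Ifitm3, Dppa3 and Mael rose, and Dnd1 was not called. The germ cell helicase gene Ddx4, with 0 control counts and 1 spermidine count, was not tested. Prdm1 (3311 countable bases), Prdm14 (2593), Tdrd1 (588), Piwil2 (359) and Nanos3 (12) were also at 0 in both controls. The part of these differences in the values below was not tested, and fewer cells of a type and less RNA per cell cannot be told apart in bulk samples.

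The genes differed in how much of them the table counts. The table has overlapping transcript rows, and the 49975 rows without a base of their own held no more than 0.001% of any library's counts. A gene is thus seen almost wholly on bases that lie in 1 row alone. Phgdh, on chromosome 3 from 98313171 to 98339969 (GRCm38, minus strand), had a single row with all of its 1871 exonic bases to itself. Mthfd1, on chromosome 12 from 76254406 to 76319820 (plus strand), had 3045 of 3324 bases. The other genes were seen through small windows: 1727 of 3167 exonic bases for Psph, 1151 of 4774 for Mthfd1l, 532 of 2235 for Shmt1, 515 of 2491 for Psat1, 242 of 2457 for Mthfd2, 210 of 6239 for Aldh1l2 and 9 of 2305 for Shmt2. A low count of Shmt2 or Aldh1l2 is therefore not a measure of low expression.

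**Figure D1:**
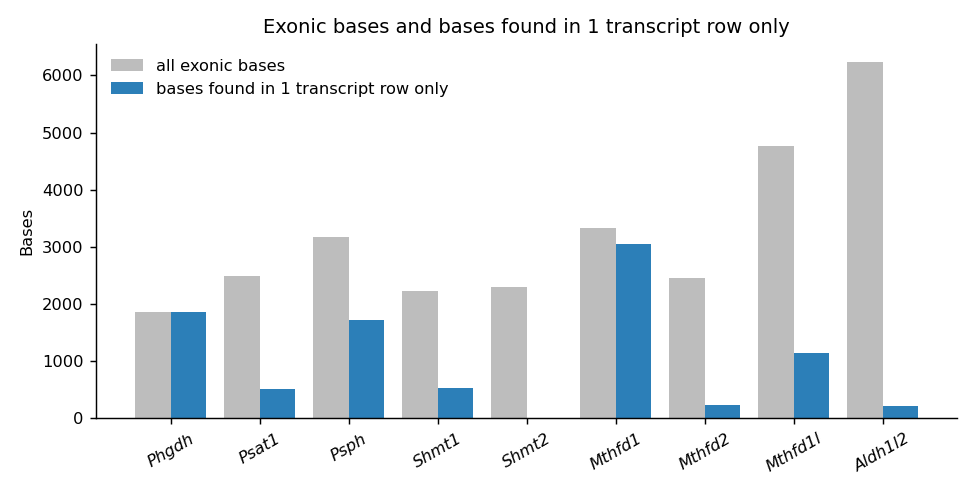
Exonic bases of each gene (grey) and those of them found in 1 transcript row only (blue), in bases. Phgdh and Mthfd1 kept nearly all of their bases, while Shmt2 kept 9 of 2305 and Aldh1l2 210 of 6239.

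For Psat1, Mthfd2 and Shmt1 the counted bases with signal were first exons. Psat1 (chromosome 19, 15905123 to 15925059, minus strand) has 2 transcript rows that differ in the first exon, at 15924864 to 15925059 for NM_177420 and at 15924304 to 15924622 for NM_001205339. Of its 71 control counts, 51 fell on the first of these exons, 260 per kb, and 20 on the other, 62.7 per kb. The 250 bases before both Psat1 starts are shown beside those of Phgdh, Mthfd1 and Mthfd2, because Phgdh and Mthfd1 are the genes that fell and the counts of Psat1 and Mthfd2 come from first exons, next to these windows. They come from RefSeq on GRCm38.p6, 5′ to 3′ on the gene's strand, with CCAAT, the letters bound by the factor NF-Y, or its reverse complement ATTGG in capitals.
Phgdh (chr3:98339970-98340219, minus strand): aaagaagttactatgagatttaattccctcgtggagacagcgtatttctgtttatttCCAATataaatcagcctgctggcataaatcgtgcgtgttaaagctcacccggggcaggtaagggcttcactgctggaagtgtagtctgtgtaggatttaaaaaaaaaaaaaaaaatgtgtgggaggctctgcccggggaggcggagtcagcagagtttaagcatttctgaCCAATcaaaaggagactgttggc
Psat1, start of NM_177420 (chr19:15925060-15925309, minus strand): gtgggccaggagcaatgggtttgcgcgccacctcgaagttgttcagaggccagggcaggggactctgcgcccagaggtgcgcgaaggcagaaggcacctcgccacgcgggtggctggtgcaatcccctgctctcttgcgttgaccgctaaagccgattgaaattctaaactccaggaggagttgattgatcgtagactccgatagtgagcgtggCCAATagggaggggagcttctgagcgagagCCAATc
Psat1, start of NM_001205339 (chr19:15924623-15924872, minus strand): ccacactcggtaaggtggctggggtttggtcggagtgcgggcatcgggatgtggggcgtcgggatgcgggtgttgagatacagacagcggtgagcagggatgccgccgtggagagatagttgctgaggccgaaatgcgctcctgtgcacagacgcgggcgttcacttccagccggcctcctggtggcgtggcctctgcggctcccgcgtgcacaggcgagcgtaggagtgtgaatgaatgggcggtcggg
Mthfd1 (chr12:76254982-76255231, plus strand): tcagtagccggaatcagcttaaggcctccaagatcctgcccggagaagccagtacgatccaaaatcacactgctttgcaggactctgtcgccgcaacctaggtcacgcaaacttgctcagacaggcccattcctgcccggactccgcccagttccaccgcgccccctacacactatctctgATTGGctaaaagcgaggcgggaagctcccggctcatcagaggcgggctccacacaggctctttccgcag
Mthfd2 (chr6:83317605-83317854, minus strand): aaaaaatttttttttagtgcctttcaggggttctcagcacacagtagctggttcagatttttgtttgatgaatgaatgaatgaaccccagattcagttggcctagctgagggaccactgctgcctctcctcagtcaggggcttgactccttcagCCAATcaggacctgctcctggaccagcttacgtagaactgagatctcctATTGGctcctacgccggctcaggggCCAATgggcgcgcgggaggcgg

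Windows were found for 8 of the 9 genes, 9 in all. CCAAT was present on either strand in 6 of the 9 windows, against 33.8% of the 32851 windows of the same length in the RefSeq table. Mthfd2 had 3 matches, at 96, 47 and 22 bases before its start, a number reached by 2.79% of all windows. Phgdh had 2, and so did the Psat1 start with more counts, while the other Psat1 start had none. The ATF4 response letters TGATGNAA and the E-box CACGTG, both searched on both strands, were in none of the 9 windows, against 3.45% and 6.02% of all windows. The motif CCAAT was chosen after these sequences had been seen. A match is a string of letters and not a site of binding.

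Phgdh, the first and committed step of serine synthesis, had the most control counts of the 9 genes and fell. Control counts were 10035 and 7807, and spermidine counts 166 and 440. Scaled to effective library size (a library's counts in tested genes times its TMM factor), these are 1454 and 1130 normalised CPM against 190 and 313. The groups did not overlap, and the higher spermidine library stood below the lower control. The log2 fold change was -2.36 ± 0.57 (SE, 2 against 2 libraries) by edgeR's quasi-likelihood test, with a Benjamini-Hochberg adjusted p of 0.0141. The pooled level was 4.86-fold lower (95% counting interval 4.48 to 5.28, counting error only). The call was lost without control replicate 1 (edgeR adjusted p = 0.192), control replicate 2 (0.124) or spermidine replicate 1 (0.0748), and it held without spermidine replicate 2 (0.000451). Over these 4 fits the log2 fold change lay between -2.71 and -2.04. Each such fit has 1 library in a group, whose spread is assumed to be that of the other group, so a lost or held call also reflects how far that other pair differs.

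Psat1, the aminotransferase of the second step, had 35 and 36 control counts against 1 and 0. Equal levels would have given 11.7 counts in the spermidine libraries together, where 1 was seen. That count lay in spermidine replicate 1, where stray counts at the receptor level would give 1.64. The pooled level was 11.7-fold lower, with a wide counting interval of 2.04 to 469. Its 51 control counts on the first exon of NM_177420 stood against 0, at least 2.81-fold lower with the floor of 3 counts over the group. On the first exon of NM_001205339, 20 counts stood against 1, a ratio of 3.30-fold lower whose interval (0.528 to 137) includes no difference. The edgeR value for the gene was -3.45 ± 1.49 (adjusted p = 0.119), so Psat1 was not called. That value ran from -7.71 without spermidine replicate 1, where no spermidine count was left, to -2.08 without spermidine replicate 2.

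Psph, the phosphatase of the last step, had a positive fold change that was not called and that differed between its transcript rows. It had 18 and 19 control counts against 25 in spermidine replicate 1 and 4 in replicate 2. Of the 25 counts, 24 lay on the predicted row XM_017320574, whose 1352 own bases (chromosome 5, 129777235 to 129778586, minus strand) are in no exon of a protein-coding Psph transcript of GENCODE vM21, only in one annotated as a retained intron. Stray counts at the receptor level would give 4.31 there. The curated row NM_133900, seen on 209 bases of its first exon, had 17 and 16 control counts against 1 and 2. Its level was 1.82-fold lower (0.569 to 9.25), an interval that includes no difference. For the summed gene edgeR gave 2.37 ± 1.07 (adjusted p = 0.135), with 0.09 ± 0.57 without spermidine replicate 1 and 3.46 ± 0.75 without spermidine replicate 2 (edgeR adjusted p = 0.00163). The high value is that of 1 spermidine library, on bases outside the exons of coding transcripts.

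**Figure D2:**
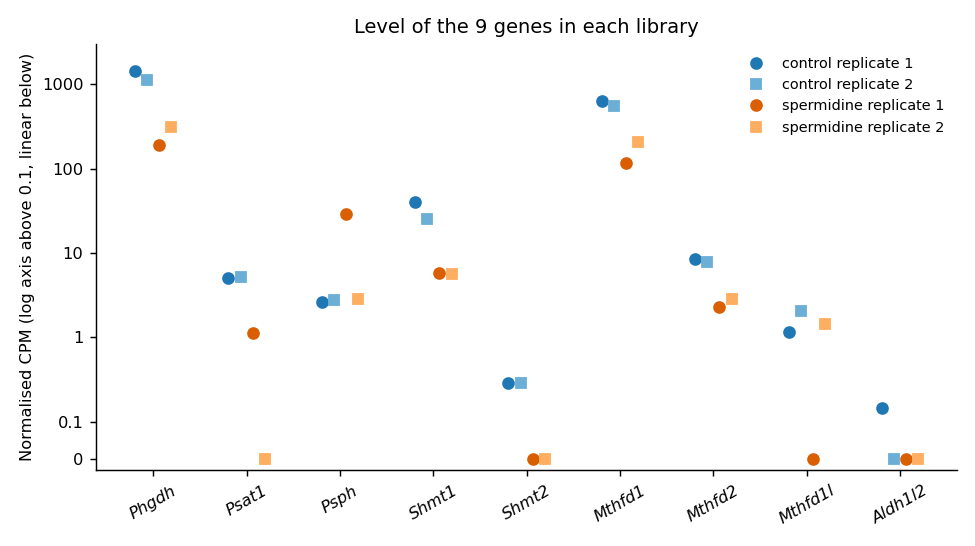
Normalised CPM of each gene (y axis, logarithmic above 0.1 and linear below) in the 2 control (blue) and 2 spermidine (orange) libraries, 1 point per library. Among the 6 tested genes, Phgdh, Psat1, Shmt1, Mthfd1 and Mthfd2 have both spermidine points below both control points, and Psph has 1 high point, spermidine replicate 1 at 28.6.

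Shmt1, the cytosolic serine hydroxymethyltransferase, had 278 and 173 control counts against 5 and 8. These are 40.3 and 25 normalised CPM against 5.72 and 5.69, so both spermidine libraries stood well under both controls. Counts of 5 and 8 are too few to show how close the spermidine libraries are. Stray counts at the receptor level would give 1.69 in spermidine replicate 1 and 0.0938 in replicate 2. The pooled level was 5.73-fold lower (3.31 to 10.8). With -2.51 ± 0.85 and an edgeR adjusted p of 0.0541, Shmt1 was not called. Of 17 alternatives 1 called it, that without spermidine replicate 2 (0.0354), while the other 3 left-out libraries gave edgeR adjusted p of 0.425, 0.177 and 0.106. The largest of its 2 rows, NM_009171, held 438 of the 451 control counts, on 362 bases of its first exon that lie before the coding sequence. Its mitochondrial partner Shmt2 had 2 and 2 counts against 0 and 0, from 9 bases. Equal levels would have given 0.66 counts in the spermidine libraries together, under the 3 that a count of 0 allows, so a fall in Shmt2 was not detectable from these bases at this depth. The interval of the ratio reaches 9.18.

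Mthfd1, the cytosolic enzyme that loads formate onto folate and interconverts the products, also fell. Control counts of 4399 and 3853 stood against 102 and 293, or 637 and 558 normalised CPM against 117 and 209. The groups did not overlap. The log2 fold change was -1.87 ± 0.55 (edgeR adjusted p = 0.0326), a pooled level 3.45-fold lower (3.12 to 3.82). The value was -1.71 without control replicate 1 (edgeR adjusted p = 0.295), -1.97 without control replicate 2 (0.236), -1.52 without spermidine replicate 1 (0.08) and -2.30 without spermidine replicate 2 (0.00143), and only the last of these passed the threshold. The call was also lost with thinned controls (0.0548), under a filter of 1 CPM in each library (0.0863), with a replicate block (0.0876) and with no low-count filter (0.302).

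Among the mitochondrial enzymes, Mthfd2, a dehydrogenase and cyclohydrolase typical of embryonic and transformed cells, had 59 and 54 control counts against 2 and 4. All came from the row NM_008638 with 176 bases around its first exon, and the pair of rows starting further upstream, with 66 bases of their own, had 0 counts in each of the 4 libraries. The level was 3.11-fold lower by counting (1.38 to 8.65), and edgeR gave -1.63 ± 0.93 (adjusted p = 0.221), so Mthfd2 was not called. Mthfd1l, the mitochondrial formate producer, had 8 and 14 control counts against 0 and 2. Equal levels would have given 3.63 counts where 2 were seen, a ratio of 1.82-fold lower (0.446 to 15.9) that does not separate the groups. Aldh1l2, which oxidises the carbon unit to carbon dioxide, had 1 count in all 4 libraries, in control replicate 1.

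**Figure D3:**
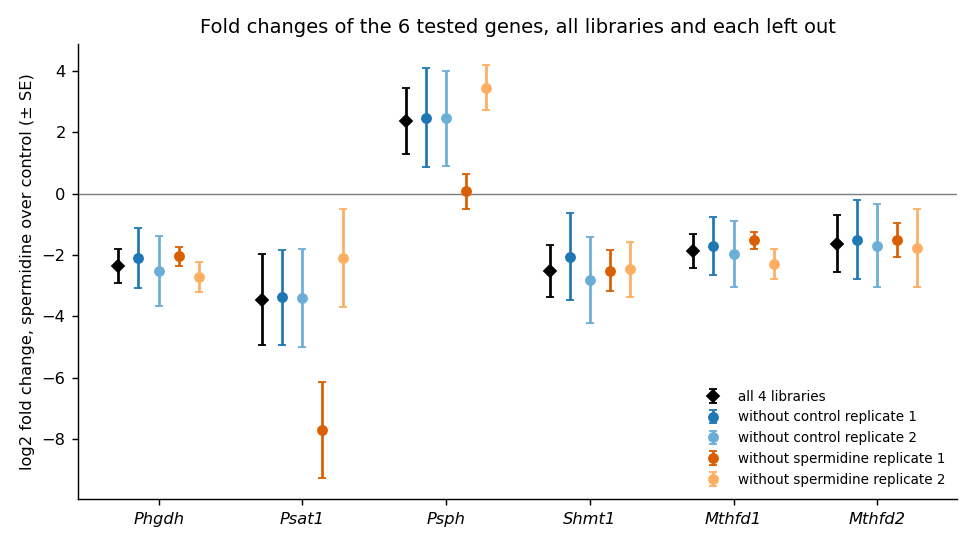
Log2 fold change of spermidine over control (± SE, edgeR) for the 6 tested genes, with all 4 libraries (black) and with each library left out in turn (colours). Values of Phgdh, Psat1, Shmt1, Mthfd1 and Mthfd2 were negative and those of Psph positive with each library left out, and Psat1 and Psph moved most, with the spermidine library that was dropped.

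Across the 9 genes, 2 of 6 tested were called, both lower. Over all 7836 tested genes 28.8% were called, 3.99% lower and 24.8% higher. The median log2 fold change of the 6 was -2.11, or -1.92 with Psat1 at its bound of 3 counts, against 0.23 for all tested genes. Both spermidine libraries lay below both controls for 5 of the 6, as they did for 29.6% of all tested genes, and above both for 1 (Psph), as for 36.6%. For Psph that order depends on scaling: spermidine replicate 2 had 2.85 normalised CPM against 2.61 and 2.75, but 2.33 CPM of all counts against 2.5 and 2.67. Only tested genes enter these numbers, and 3 of the 9 do not. Under upper-quartile scaling the median of all tested genes was 0.37, and Phgdh and Mthfd1 were again the members called.

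Genes abundant in the controls were mostly lower after spermidine. Of 407 other genes with at least 500 normalised CPM in the controls, the class of Phgdh and Mthfd1, 26% were called lower and 0.246% higher, with a median log2 fold change of -1.26. Within that class 6.88% of genes had a lower value than Phgdh and 19.9% a lower value than Mthfd1. Among 2076 genes at 10 to 100 normalised CPM, the class of Shmt1, the median was -0.36 and 3.95% had a lower value than Shmt1. Among 2616 genes at 1 to 10 normalised CPM the median was 1.04, and 1.64% lay under Psat1, 8.1% under Mthfd2 and 76% under Psph. In the lower part of this class, too, genes pass the count filter only with the help of spermidine counts. Its median and these shares are therefore not those of an unselected background. Of 1483 genes under 1 normalised CPM, a class without a tested member, 95.9% were called higher, with a median of 6.49. Classes were set by control level, which also enters the fold change, so these shares are descriptions.

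**Figure D4:**
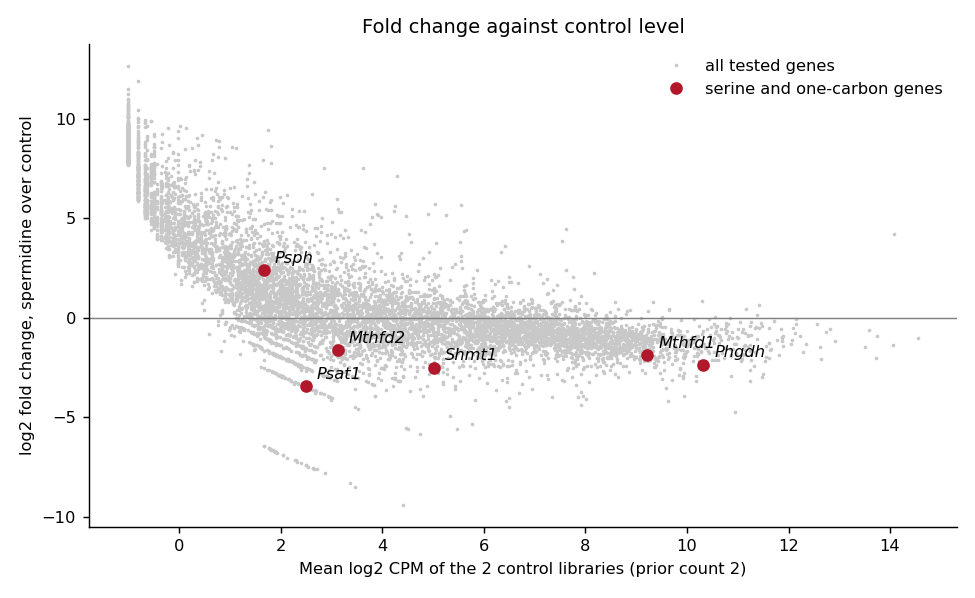
Log2 fold change of spermidine over control (y axis) against the mean log2 CPM of the 2 controls (x axis) for 7836 tested genes (grey) and the 6 tested serine and folate genes (red). Genes with high control levels lie mostly below 0, and Phgdh and Mthfd1 lie in the lower part of that band.

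Ratios between genes within a library do not depend on library scaling. Per Mthfd1 count, the controls held 2.28 and 2.03 Phgdh counts against 1.63 and 1.5 after spermidine, so the ratio was lower in both spermidine libraries. Phgdh counts per Shmt1 count were 36.1 and 45.1 against 33.2 and 55, which overlap. Set against leukocyte markers, Phgdh stood at 0.312 and 0.292 counts per summed marker count in the controls, at 0.219 in spermidine replicate 1 and at 0.995 in replicate 2. Against the summed purine genes it stood at 0.373 and 0.362, then 0.255 and 0.289. These ratios were not tested. Levels per kb of countable bases can be set side by side only for genes seen on most of their exons: in the controls Phgdh had 777 and 604 normalised CPM per kb and Mthfd1 209 and 183, and in the spermidine libraries 101 and 167 against 38.3 and 68.5.

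In purine synthesis, which uses the carbon unit, 3 of 7 tested genes fell and 0 rose, with a median of -1.71. Counts of falls in this and the following lists stand beside 3.99% of all tested genes called lower. Among the 407 other genes with at least 500 normalised CPM in the controls that share was 26%, with a median of -1.26. Atic, Ppat, Pfas, Mat2a, Ahcy, Slc7a5, Gars and Pgk1 were at that level and were called lower. Eif4ebp1, Tpi1, Gpi1 and Pgam1 were at that level too and were not called. Atic, which adds the last formyl group, had 9389 and 7453 counts against 179 and 481 (-2.15 ± 0.56, edgeR adjusted p = 0.0202). Ppat, the entry step, had -2.34 ± 0.53 (0.0106), and Pfas, a middle step, -2.11 ± 0.56 (0.0207). Adsl was not called (-1.25 ± 0.52, 0.108). In the methionine cycle and transsulfuration, 2 of 8 fell and 2 rose (median -1.24). Mat2a, which makes the methyl donor S-adenosylmethionine, fell by 1.95 on the log2 scale (edgeR adjusted p = 0.0343), and Ahcy, which clears its product, fell by 2.16 (0.0149). The 2 that rose were Mtap, which salvages the methylthio by-product of polyamine synthesis (12 and 73 counts against 51 and 141), and Bhmt, which remethylates homocysteine (1 and 1 against 23 and 9), named after their values were seen. Adi1 and Ahcyl1 had -1.45 ± 0.53 (0.0741) and -1.35 ± 0.66 (0.165) and were not called.

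Among other folate enzymes, 1 of 9 tested fell and 2 rose, with a median of 0.82. Mtfmt, which formylates the mitochondrial initiator tRNA, fell by 2.34 (edgeR adjusted p = 0.0306). The glycine cleavage genes Gcsh (-1.65 ± 0.56, 0.0563) and Dld (-1.21 ± 0.54, 0.133) were not called. The genes that rose, Amt and Sardh, had 4 and 8 and 8 and 6 control counts against 17 and 8 and 9 and 42, and were named after their values were seen. Of 9 tested carriers and folate retention genes, 2 rose and 0 fell (median -0.30). In these 2 lists and in the methionine list the share that rose was near or below the 24.8% of all tested genes called higher. Among tested genes under 1 normalised CPM in the controls that share was 95.9%, and Bhmt and Amt were at that level. Sardh, with 8 and 6 control counts, likewise passed the count filter only through its spermidine counts. The proton-coupled folate carrier Slc46a1 had 6 and 4 counts against 18 and 72 (5.62 ± 0.94, edgeR adjusted p = 0.00591), and the gamma-glutamyl hydrolase gene Ggh, named after its values were seen, had 1 and 6 against 7 and 35. Both carriers of these values were also under 1 normalised CPM in the controls. In spermidine replicate 1 the 7 Ggh counts, on 3563 bases, were under the stray level of 3.18 per kb. There the 18 counts of Slc46a1, on 1974 bases, and the 9 of Sardh, on 1746, were above it. The serine carrier Slc1a4 (-1.30 ± 0.56, 0.121), the amino acid carrier Slc38a1 (-1.34 ± 0.77, 0.226) and the mitochondrial folate carrier Slc25a32 (-0.30 ± 0.68, 0.772) were not called.

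Of 20 tested genes among other targets of ATF4, 2 fell and 0 rose, with a median of -0.56. Those that fell were the large neutral amino acid carrier Slc7a5 (19169 and 21761 counts against 562 and 912, -2.20 ± 0.57, edgeR adjusted p = 0.0196) and the glycyl-tRNA synthetase gene Gars (-2.01 ± 0.54, 0.0227). The translation inhibitor gene Eif4ebp1 had -1.01 ± 0.54 (0.195). The stress-induced pseudokinase gene Trib3 was uneven between the controls, with 607 and 6058 counts against 292 and 146, and had -1.15 ± 0.98 (0.412). Atf4 itself had 23 and 24 counts against 5 and 3 on 283 bases (0.07 ± 0.91, edgeR adjusted p = 0.966), and was named after its values were seen. In glycolysis, which supplies 3-phosphoglycerate, 1 of 11 fell and 1 rose (median -1.67). Pgk1, the kinase that makes 3-phosphoglycerate, fell by 2.14 (0.0223), while Pgam1, the mutase that takes it onward, had -1.23 ± 0.53 (0.121), and Tpi1 and Gpi1 had -1.09 ± 0.56 (0.181) and -1.04 ± 0.55 (0.193). Phgdh, Pgk1 and Pgam1, which act on or make the same metabolite, thus had values of -2.36, -2.14 and -1.23, and the differences between them were not tested. Aldoa, named after its values were seen, was the gene that rose, from 2 and 1 counts to 3 and 34 on 239 bases. Its control level, too, was under 1 normalised CPM. Among genes that use serine, or belong to the serine incorporator family, 0 of 7 fell and 1 rose (median -0.01): Serinc5, with 196 and 182 counts against 64 and 509, had 3.01 ± 0.76 (edgeR adjusted p = 0.0174). Sptlc2, a subunit of the enzyme that starts sphingolipid synthesis, had -1.65 ± 0.55 (0.0514), Ptdss1 -0.92 ± 0.52 (0.218) and Serinc1 0.68 ± 0.62 (0.449).

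The numbers of calls in these lists changed with the library left out, in fits with 1 library in a group. Without control replicate 1, none of the genes of the 7 connected lists was called by edgeR in either direction. Purine synthesis had 0 genes called lower without control replicate 1, control replicate 2 or spermidine replicate 1, and 5 without spermidine replicate 2, while its median stayed between -2.22 and -1.4. The methionine list likewise had 0 lower in the first 3 of these fits and 4 in the last, with medians of -1.25 to -0.96. Glycolysis had 0 lower without control replicate 1 or spermidine replicate 1 and 5 without spermidine replicate 2. Medians of 3 lists changed sign: other ATF4 targets had 0.28 without control replicate 2, other folate enzymes -0.09 without spermidine replicate 1, and serine users between -1.09 and 0.34.

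**Figure D5:**
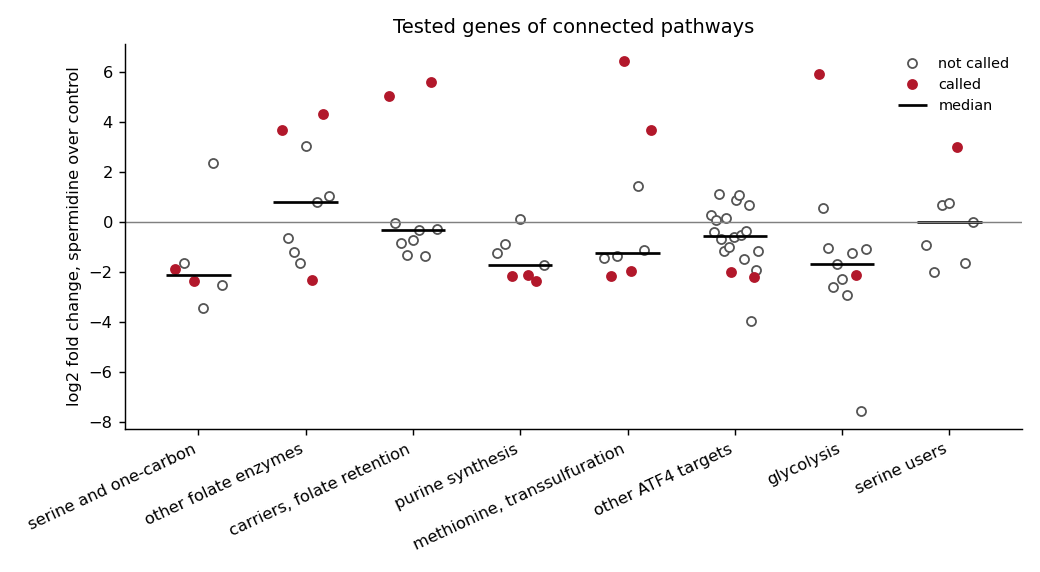
Log2 fold change of spermidine over control for the tested genes of each list, 1 point per gene, filled red where called (edgeR adjusted p under 0.05), with the list's median as a black bar. The medians of the serine and folate genes (-2.11), purine synthesis (-1.71) and glycolysis (-1.67) lie below those of the other lists plotted, though their order among themselves changed with the library left out, and called genes of the folate enzyme and carrier lists lie on the positive side except Mtfmt.

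The genes most like the 6 tested members in profile over the 4 libraries, by Euclidean distance between centred log2 CPM values and the members' mean, were Hira, Ifi35, Ncor1, Prkca and Haus3, at distances of 0.046 to 0.142. That mean was -0.516 in spermidine replicate 1 and -1.02 in replicate 2. Psat1 and Psph were likewise higher in replicate 1. The called members had the opposite order, with 190 and 313 normalised CPM for Phgdh and 117 and 209 for Mthfd1. The 5 genes are thus like the mean and not like each member. Prkca had 1860 and 1726 counts against 97 and 100 (-1.52 ± 0.53, edgeR adjusted p = 0.0626), and Hira 27 and 23 against 1 and 1. None of the 5 was called, with edgeR adjusted p from 0.0626 to 0.186.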

How the data were processed

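RNA was sequenced in 2 control and 2 spermidine libraries, paired-end, per the labels' protocols. The submitters' processing notes name HISAT2, DESeq2 and the build mm9 without roles or versions, and no source used here gives the counting program, its strand setting or how it treated reads matching several places. The deposited table holds raw counts for 106519 RefSeq transcript rows, per the file headers. Rows were matched to genes through a RefSeq table of GRCm38.p6 (86040 rows, 80.8%), 88.7% of them within the span of their gene on that build, and positions are therefore given as GRCm38. Rows of a gene were summed. The filter was filterByExpr with a count minimum of 10 and a total minimum of 15, scaling was by TMM, and the test was that of edgeR 4.0.16 in R 4.3.3 (glmQLFit without its legacy option, glmQLFTest, group as the only term, 2 residual degrees of freedom), with Benjamini-Hochberg adjustment over all 7836 tested genes and a threshold of 0.05. Log2 CPM used a prior count of 2. Counting intervals are exact conditional binomial intervals (95%) of pooled counts, cover counting error only, and use effective library sizes. On simulated counts the changed genes that were called had the right sign, and most simulated falls were not called. Replicates differed beyond sampling noise (chi-square per degree of freedom 21.2 between controls, 17.1 between spermidine libraries). These 2 values grow with depth and cannot be compared with each other. The correlation of log2 CPM was 0.969 between controls and 0.732 between spermidine libraries. The 9 genes are all named; of each other list the 4 tested genes with the highest mean log2 CPM are named, and any others are marked as chosen after their values were seen, and the 5 genes nearest the members' mean centred log2 CPM profile are named. Of the genes this rule names, 1 is not reported here. Members and lists were chosen with earlier results of these data known. Alternatives covered scaling, filters, DESeq2 1.42.0, limma-voom (limma 3.58.1), a replicate block, each library left out, transcript rows and protein-coding genes. Added after the data were seen were thinned controls, subtraction of the receptor level, the legacy edgeR fit and genes with a single row. Sequences are from RefSeq.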

Additional observations from a re-analysis of the deposited data

How the results depend on the processing

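The count of called genes (2256) and the 2 called members, Phgdh and Mthfd1, were recomputed under 18 alternatives. With no low-count filter 0 genes and 0 of the 9 members were called by edgeR, and 4255 genes had an unadjusted p under 0.05. A filter of 1 CPM or more in all libraries gave 275 genes and 1 of 5 tested members (Phgdh). Thinning the controls to the mean depth of the spermidine libraries gave 1111 genes and 1 of 3 tested members (Phgdh), and subtracting the receptor level gave 1492 genes and 2 members. Leaving out a library gave 0 to 3725 genes and 0 to 4 members: edgeR called 0 genes when control replicate 1 was dropped (1926 with an unadjusted p under 0.05), 1513 for control replicate 2, 484 for spermidine replicate 1 and 3725 for spermidine replicate 2. With all libraries limma-voom called 1954 and DESeq2 3046. The 4 members called without spermidine replicate 2 were Phgdh, Mthfd1, Shmt1 and Psph. With the replicate block 1775 genes were called and 0 members, with Phgdh at -2.39 ± 0.72 (edgeR adjusted p = 0.0577) and Mthfd1 at -1.92 ± 0.66 (0.0876). Same-numbered libraries did not deviate together (correlation -0.0299 across genes). That does not exclude a pairing of the samples, because the spermidine libraries also differ from each other in depth and stray counts. Every tested value of Phgdh, Psat1, Shmt1, Mthfd1 and Mthfd2 was negative and every value of Psph positive in all alternatives where the gene was tested, with Phgdh called in 13 of 18 (log2 fold change -2.78 to -1.85, adjusted p 0.000451 to 0.289) and Mthfd1 in 11 of 18 (-2.30 to -1.37, 0.00143 to 0.302). Low spermidine counts (6 or fewer in all) limit Psat1, Mthfd2 and Mthfd1l, and few countable bases limit Shmt2 and Aldh1l2, whose controls held 4 counts and 1.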
